A study of Mus musculus with 2 samples.

Results

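The immunoglobulin kappa (Igk) and lambda (Igl) light chain loci were examined for CTCF binding in T cell precursors of the mouse. CTCF regions were taken from a window on chromosome 6 from 67.3 to 70.9 Mb for Igk and from a window on chromosome 16 from 18.8 to 19.5 Mb for Igl, in the mm9 build. A region was a run of touching 25-bp bins of the deposited peak track, and it belonged to a window when its centre lay inside. The Igk window held 46 regions and the Igl window 7, which made 53 of the 53551 regions in the whole map. The loci themselves take up only the inner part of these windows, from about 67.5 to 70.7 Mb for Igk and from about 19 to 19.3 Mb for Igl. The stretches of 0.2 Mb on either side are called margins here.

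The cells were CD4-CD8- double-negative (DN) thymocytes from C57BL/6 mice that were Rag1-/- and aged 4 to 8 weeks. The RAG1 protein is needed to cut antigen receptor genes, so cells that lack it cannot rearrange them and do not develop past the DN stage. All light chain genes in this map are therefore in germline order. The series holds 2 libraries from these cells, 1 made with an antibody to CTCF and 1 from input DNA, and the track in use comes from the first. The number of animals pooled is not given. A track of positions carries no marker level, so the labelled cell type could not be checked. It also carries no height, so each region is described by its position and width.

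CTCF is a zinc-finger protein that binds DNA at insulators and at the bases of chromatin loops, where it can stop cohesin. Light chain genes are assembled in B cell precursors by joining a variable (V) gene segment to a joining (J) segment next to a constant (C) region, and T cells do not normally assemble them. At Igk, a pair of elements in the interval between the last V segment and the first J segment, Cer and Sis, are known to bind CTCF. In B cell precursors they favour the use of distant over nearby V segments. Igl is the small light chain locus of the mouse and contributes few of its antibodies.

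The gene order helps to read positions along the loci. In the RefSeq table for GRCm38.p6, Igk has 162 V gene entries, 60 of them pseudogenes, followed by 5 J segments and the single constant region Igkc. They run in the direction of rising coordinates from Igkv2-137, the most distant from Igkc, to Igkv3-1, the nearest. Several V gene families fall in one part of this order, while others are spread over it. By order, the 81 distant entries include 12 of 13 members of Igkv1 and all 10 of Igkv2, whereas the 81 nearer ones hold all 13 of Igkv3, all 13 of Igkv8 and all 9 of Igkv6. The largest family, Igkv4, has 14 members in the distant and 19 in the nearer part. Protein-coding neighbours include Il23r and Il12rb2 at the distant end and Rpia, Eif2ak3 and Tex37 beyond Igkc. Il12rb2 and Il23r encode cytokine receptor chains, Rpia a sugar phosphate isomerase and Eif2ak3 a stress kinase. Only names and order were taken from this table, because its build is not that of the track. No region was therefore assigned to a gene, to Cer or to Sis.

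The approximate Igk locus was poor in CTCF regions, and the margins beside it had higher densities. Within the approximate locus there were 27 regions in 3.2 Mb, or 8.44 regions per Mb (exact Poisson 95% interval 5.56 to 12.3). The lower margin held 9 regions (45.0 per Mb, interval 20.6 to 85.4) and the upper margin 10 (50 per Mb, interval 24.0 to 92.0). The rest of chromosome 6 held 20.7 regions per Mb (interval 19.97 to 21.47). The interval of the lower margin includes this value, and that of the upper margin does not. The density in the locus was thus 0.407 times that of the rest of the chromosome (exact binomial 95% interval 0.268 to 0.594) and 0.178 times that of its margins (0.0952 to 0.338). These intervals cover counting error in 1 library only and are too narrow where regions come in clusters. The contrast with the margins depended on where the locus is taken to end. The 100 kb nearest to it held 8 of the 9 regions of the lower margin and 7 of the 10 of the upper. With the limits of the locus moved out by 50 kb the ratio to the margins became 0.507. Its interval of 0.224 to 1.34 includes 1. With the limits moved in by 50 kb the ratio to the margins was 0.176 (0.0945 to 0.329). With regions within 1000 bp joined it was 0.2 (0.101 to 0.41). With only regions of 500 bp or more it was 0.104 (0.0403 to 0.263). Over the whole Igk window of 3.6 Mb, margins included, the density was 12.8 regions per Mb (9.36 to 17.0) and the ratio to the rest of the chromosome 0.617 (0.451 to 0.825).

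**Figure D1:**
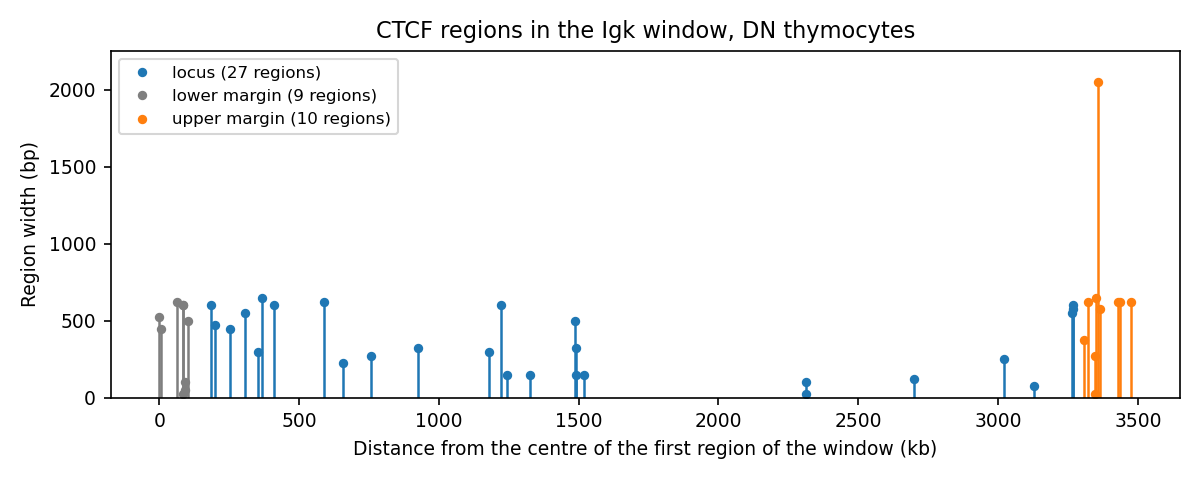
CTCF regions in the Igk window, each drawn at its distance from the centre of the first region (x axis, kb) with its width (y axis, bp). The 27 regions of the locus leave a long stretch nearly bare before a group of 3 wide regions near its upper end, and the widest region, of 2050 bp, stands in the upper margin.

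Along Igk, CTCF was unevenly spread. Of 6 equal parts of the window, each 600 kb long, the first held 16 regions and the last 15. The 4 parts between them held 4, 8, 0 and 3 regions in order of rising coordinates. The empty part ran from 69.1 to 69.7 Mb. A count of 0 there allows a density of up to 6.15 regions per Mb (upper limit of the exact Poisson interval). This limit is below the 20.7 per Mb of the rest of the chromosome. The part was picked because it was empty, however, and the limit is too low where regions come in clusters. Split at its midpoint, the locus held 19 regions in the lower 1.6 Mb, farthest from Igkc, and 8 in the upper 1.6 Mb. The ratio was 2.38 with an interval of 0.993 to 6.27, so the difference was not resolved at these counts. The interval excluded 1 when regions within 1000 bp were joined (ratio 3, interval 1.14 to 9.23) or when the limits of the locus were moved in by 50 kb (3.8, 1.37 to 13.0). It included 1 with the limits moved out by 50 kb (2, 0.991 to 4.24) and with only regions of 500 bp or more (2.33, 0.533 to 13.98). Moving the limits in put the 3 wide regions near the upper end outside the locus, so the ratio of 3.8 follows by construction.

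The distant part of the V array carried spaced, mostly single regions. The first region inside the locus, chr6:67581496-67582095, was 600 bp wide. It was followed at 14.4 kb by a region of 475 bp (chr6:67596446-67596920) and then, after 52.1 kb, by one of 450 bp. The next region, chr6:67703971-67704520 (550 bp), came after a gap of 54.5 kb. A pair followed at 46.1 and 11.5 kb, the second of which, chr6:67762396-67763045, was the widest in the locus at 650 bp. A region of 600 bp after 44.8 kb and one of 625 bp (chr6:67983471-67984095) after 175.1 kb completed the group. These 8 regions were 300 to 650 bp wide, with 5 of them at 500 bp or more. Up to 68.6 Mb came 4 narrower regions of 225 to 325 bp at gaps of 68.3 to 256.8 kb.

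**Figure D2:**
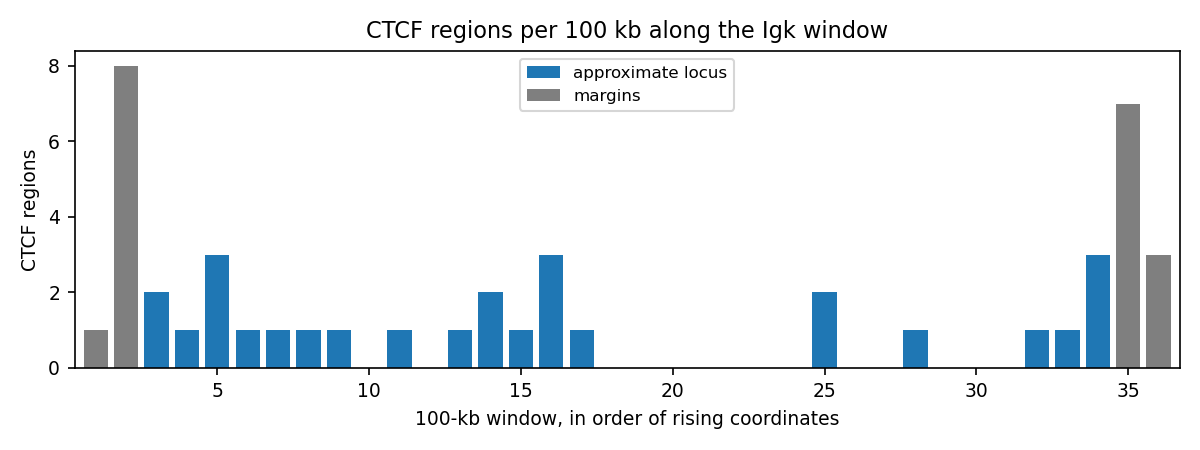
Number of CTCF regions (y axis) in each of the 36 windows of 100 kb across the Igk window, in order of rising coordinates (x axis). Windows of the locus (blue) hold 0 to 3 regions, and 2 of the 4 windows of the margins (grey) hold 8 and 7.

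Before the long empty stretches, CTCF regions appeared once more, most of them widely spaced. A region of 600 bp (chr6:68618271-68618870) was followed by 2 regions of 150 bp, at gaps of 20.6 and 82 kb. After a gap of 160.1 kb, a group of 3 lay within 6.725 kb, led by a region of 500 bp (chr6:68881796-68882295). A region of 150 bp at chr6:68914121-68914270, 25.6 kb farther on, was the last one below the longest gap.

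Past this point the locus was nearly bare. No CTCF region was listed for 794.5 kb, from 68914271 to 69708720, the longest gap of either locus. Of the 2999 gaps on chromosome 6, 17 were at least as long, and of all gaps on chromosomes 1 to 19, 0.502%. Both figures include this gap itself, which was picked as the longest of 26 in the locus. The next gaps, of 388.2 kb and 321.4 kb, followed almost directly, and 1.63% and 2.16% of autosomal gaps were at least as long as these. The regions that separate them were narrow. The pair at chr6:69708721-69708820 and chr6:69708846-69708870 measured 100 and 25 bp, and the regions at chr6:70097096-70097220 and chr6:70418646-70418895 measured 125 and 250 bp. A further region, chr6:70523246-70523320, was 75 bp wide. Between the region of 500 bp at 68.9 Mb and the next of that width or more lay 1.78 Mb with 8 narrower regions. This stretch was chosen after the positions were seen, and the width of the regions inside it is limited by the choice. Intervals of this length between regions of 500 bp or more were uncommon, with 9 of 1370 on chromosome 6 and 148 of 24421 on the autosomes at least as long. Whether reads could be placed in these stretches was not tested, and a stretch without a listed region does not show that CTCF was absent.

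Close to the end that holds Igkc, wide CTCF regions returned abruptly. The last 200 kb of the locus, from 70.5 Mb, held 4 regions. After the narrow one at 70523246 came 135.9 kb without a region and then 3 wide ones within 5.475 kb. They lay at chr6:70659196-70659745 (550 bp), chr6:70662971-70663545 (575 bp) and chr6:70664071-70664670 (600 bp). The gap between the first and the second was 3.225 kb, and between the second and the third 0.525 kb. No other group of 3 regions of 500 bp or more within 10 kb lay in the approximate locus. In the remaining 3 Mb of the locus 7 of 23 regions were that wide (30.4%, exact 95% interval 13.2 to 52.9%), against 3 of 4 here, a number too small for a comparison of shares.

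CTCF regions then continued beyond the approximate end of the locus. From the first of the 3 wide regions, 10 regions followed one another at gaps of at most 50 kb over 103.1 kb, up to position 70762295. The nearest one outside the locus limit, chr6:70702496-70702870 (375 bp), had its centre 2.68 kb past it, so its side depends on a limit that is only approximate. Then came chr6:70718621-70719245 (625 bp) and, after 22.7 kb, a region of 25 bp beside one of 275 bp. The next, chr6:70747671-70748320, measured 650 bp. The widest region of the window, chr6:70754371-70756420, measured 2050 bp and lay 6.05 kb farther on. It was 3.15 times as wide as the next widest region in the Igk window. Of autosomal regions, 0.00383% were at least as wide as this one, which was picked as the widest of the window. Signal from the input library was not used here, so its part in the width of 2050 bp was not tested. The margin ended with regions of 575, 625, 625 and 625 bp.

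The lower margin listed nearly as many regions as the upper one, but they were more broken up. Of its 9 regions, 8 lay between 67.4 and 67.5 Mb. They included 2 regions of 600 bp, at chr6:67480871-67481470 and chr6:67481671-67482270, with a single bin of 25 bp between them, and a pair of 100 and 50 bp. The last of the 9, chr6:67499471-67499970 (500 bp), had its centre 0.28 kb below the locus limit, and the next region was 81.5 kb away. With regions within 1000 bp joined, the Igk window held 39 sites and the locus 24.

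**Figure D3:**
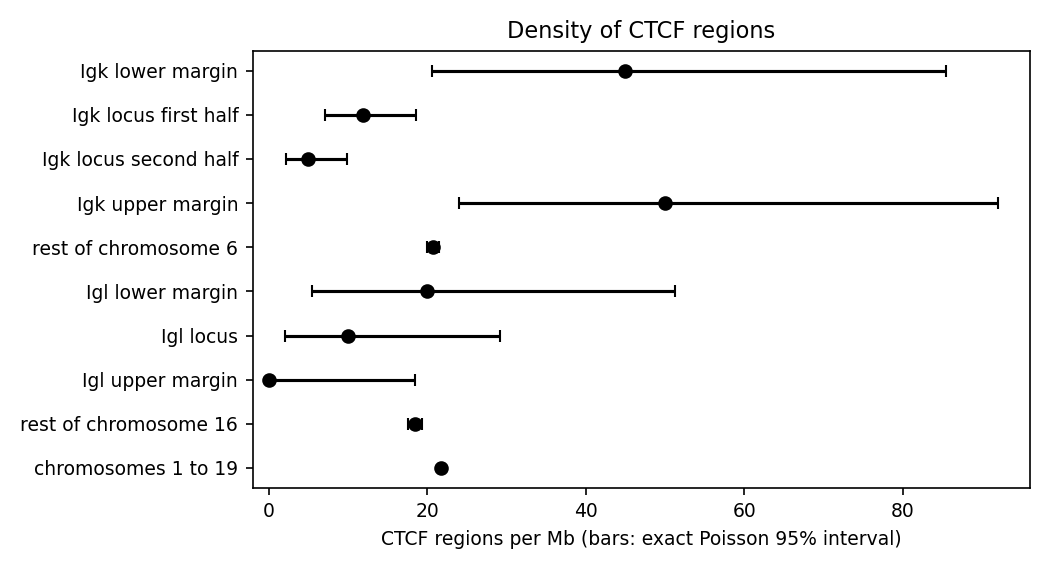
CTCF regions per Mb (x axis) in the parts of both windows, the rest of each chromosome and chromosomes 1 to 19, with exact Poisson 95% intervals that cover counting error only. Both parts of the Igk locus lie below the rest of chromosome 6 (20.7 per Mb) and both Igk margins have point values above it.

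Region widths in the Igk locus overlapped those elsewhere. Their median width was 325 bp (order-statistic 95% interval 150 to 550 bp), that of the 19 regions of the margins was 575 bp (275 to 625 bp), and that of the rest of chromosome 6 was 425 bp (400 to 450 bp). In the locus 10 of 27 regions reached 500 bp (37.0%, exact 95% interval 19.4 to 57.6%), as did 12 of 19 in the margins (63.2%, 38.4 to 83.7%). Such regions accounted for 45.7% of the rest of chromosome 6 and 46.8% of all regions on chromosomes 1 to 19, and both Igk intervals include these values. Counting only such wide regions, the density in the locus was 0.331 times that of the rest of the chromosome (0.158 to 0.610), so the deficit was present among wide regions too. Regions of 100 bp or less numbered 3 of 27 in the locus (11.1%, exact 95% interval 2.35 to 29.2%), and they made up 22.8% of the rest of chromosome 6, a value inside this interval. All 3 lay in the upper 1.6 Mb of the locus. CTCF regions covered 0.303% of the length of the locus and 0.788% of the rest of the chromosome.

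Spacing was wider in the approximate Igk locus than along the rest of its chromosome, but not clearly so in the whole window. The median gap between neighbours in the locus was 53.3 kb (order-statistic 95% interval 20.6 to 135.9 kb, 26 gaps), and on the rest of chromosome 6 it was 15.9 kb (14.5 to 17.3 kb). For the whole Igk window, margins included, it was 25.6 kb, with an interval of 11.4 to 54.5 kb that includes the value of the rest of the chromosome. Gaps of more than 100 kb numbered 9 of 26 in the locus, or 34.6%, compared with 9 of 45 (20%) in the whole window and 11.3% on the rest of the chromosome. Together these 9 gaps took up 81.5% of the gap length in the locus, and gaps over 100 kb took up 61.6% on the rest of the chromosome. Gaps over 1 and up to 10 kb were scarce, with 2 of 26 (7.69%) against 25.4%. In the lower 1.6 Mb the median gap was 49.1 kb and the longest 256.8 kb. In the upper 1.6 Mb the 7 gaps between regions fell into 2 kinds, with 3 of at most 10 kb, 4 of more than 100 kb and 0 between these lengths. The longest gap of the locus, of 794.5 kb, spans the midpoint and was counted in neither part.

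**Figure D4:**
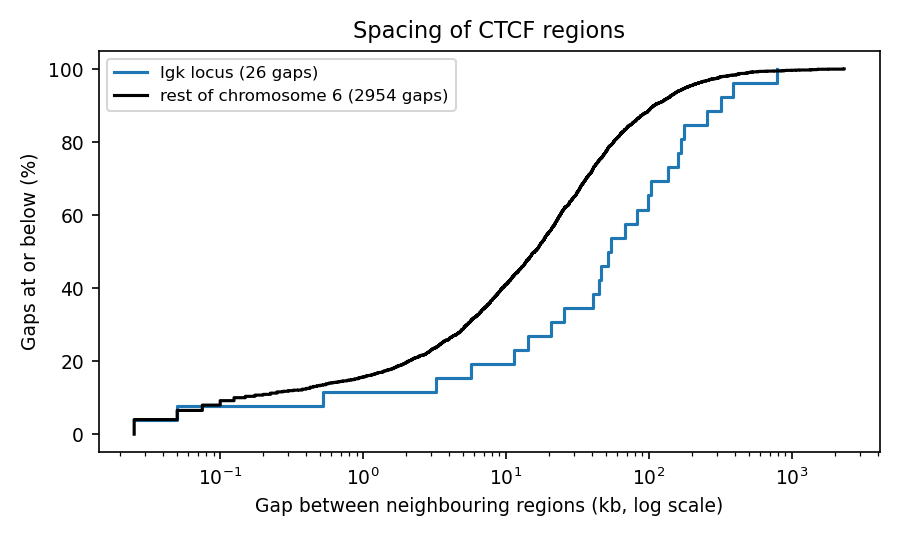
Share of gaps between neighbouring CTCF regions (y axis, %) at or below a given length (x axis, kb, log scale) for the Igk locus (blue) and the rest of chromosome 6 (black). The curve of the locus lies to the right for most lengths, with medians of 53.3 and 15.9 kb.

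Seen in windows of 100 kb, the approximate Igk locus lacked crowded windows, while its share of empty ones was close to that of the autosomes. Of the 32 windows in the locus, 14 held no region (43.8%, exact 95% interval 26.4 to 62.3%), and 39.9% of such windows on chromosomes 1 to 19 were also empty. The median was 1 region per window in both. The difference lay at the upper end. The fullest window of the locus held 3 regions, whereas 23.4% of autosomal windows held 4 or more. In the margins, the windows at 67.4 and 70.7 Mb held 8 and 7 regions, counts that 8.09% of autosomal windows reached (7 or more). The cut at 4 was chosen after the counts were seen, just above the highest count in the locus. Over the whole Igk window, margins included, 2 of 36 windows (5.56%) held 4 or more. The limit at 70.7 Mb also splits a run of 10 regions over 103.1 kb, and its part beyond the limit counts as margin.

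Low counts like that of Igk are common over long stretches of the autosomes. Of 762 full windows of 3.2 Mb on chromosomes 1 to 19, 21.9% held fewer than the 27 regions of the locus, and the median was 56.5 (quartiles 30 and 97). For the 3.6-Mb window with its margins the figure was 34.7% of 678 windows. The stretch before the first region of each chromosome is part of these windows, which raises such shares. The surroundings of Igk differed from each other as well. The 3.6 Mb below the window held 51 regions (14.2 per Mb) and the 3.6 Mb above it 106 (29.4 per Mb).

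At Igl, few CTCF regions were found, at the lower limit and near the middle of the locus. In the gene table Igl has 3 V genes, 5 J segments (2 of them pseudogenes) and 4 constant regions (1 pseudogene). By order, Iglc1 comes first, Iglv1 lies in the middle, and Iglc2, Iglv3 and Iglv2 follow. Hira, which encodes a histone chaperone, precedes them and the olfactory receptor gene Olfr164 follows. The approximate locus held 3 regions. A wide one of 875 bp, chr16:19002653-19003527, had its centre 3.09 kb inside the lower limit. After 142.9 kb came a single bin at chr16:19146403-19146427 and, 150 bp farther, a region of 500 bp at chr16:19146578-19147077. The last 2 may count as 1 site, which leaves 2 sites in the locus once regions within 1000 bp are joined.

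The remaining 4 regions of the Igl window lay in the lower margin. A bin of 25 bp at chr16:18858528-18858552 stood 50 bp before a region of 625 bp (chr16:18858603-18859227). A second region of 875 bp, chr16:18877653-18878527, followed after 18.4 kb, and a narrow one of 100 bp, chr16:18975853-18975952, after 97.3 kb. Both regions of 875 bp were wide for this map, where 1.26% of autosomal regions reached that width. The upper margin held 0 regions. From 19147077 the next region was 519.2 kb away, at chr16:19666278-19666852, outside the window. Of autosomal gaps, 1.07% were at least that long.

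**Figure D5:**
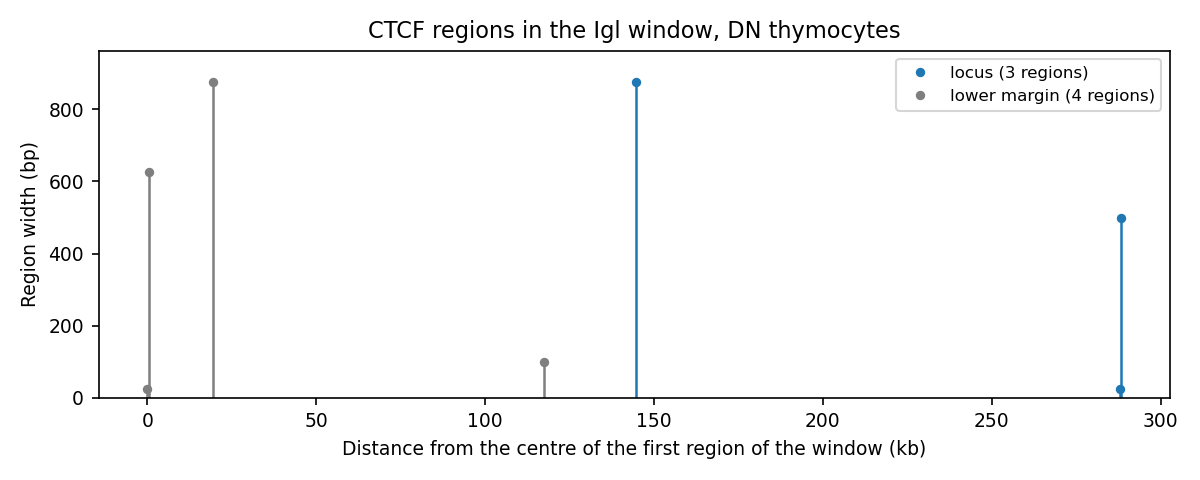
CTCF regions in the Igl window, each drawn at its distance from the centre of the first region (x axis, kb) with its width (y axis, bp). All 7 regions lie within 288.6 kb, and 2 of them reach 875 bp.

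By density, the Igl locus could not be told from the rest of its chromosome, though the stretch just below its window was denser. The locus held 10.0 regions per Mb (exact Poisson 95% interval 2.06 to 29.2) and the rest of chromosome 16 held 18.5 (17.6 to 19.4), a ratio of 0.542 with an interval of 0.112 to 1.59. The whole window also held 10.0 per Mb (4.02 to 20.6). Of 8228 autosomal windows of 300 kb, 38.8% held fewer than 3 regions, and the median was 4. The 0.7 Mb below the Igl window held 35 regions (50 per Mb, interval 34.8 to 69.5), and this interval does not overlap that of the locus or of the window. Such intervals are too narrow where regions come in clusters. Autosomal windows of 0.7 Mb varied widely, with a median of 11 regions and quartiles of 3 and 22. There were 20 regions in the 0.7 Mb above the Igl window (28.6 per Mb). The density of the Igk locus was 0.844 times that of the Igl locus, with an interval of 0.260 to 4.35, so a difference between the light chain loci was not detectable with 3 regions at Igl.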

How the data were processed

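The deposited track lists positions only; its columns hold no count, score or height, per the file header. Bowtie and the mm9 build are named in the submitters' processing notes. For the peak caller, its threshold and any use of the input library, the choice made is not given in the sources used. Chromatin was fixed with 1% formaldehyde, and libraries of about 200 to 250 bases were sequenced, per the labels' protocols. All 825544 bins were 25 bp long. Touching bins were joined, and starts were made 1-based. Window limits are those set for this work. Density is regions per Mb of a window, or of the span between first and last region for chromosomes. Autosomal windows of equal length, those of 100 kb included, were laid from the start of each chromosome. They therefore include the stretch before its first region, which raises the shares of empty windows and of windows with fewer regions. Intervals are 95% and cover counting error only: exact Poisson for densities, exact binomial for shares and ratios, order statistics for medians. Read depth is unknown. With 1 library, no test across samples was possible. Code was tested on simulated data.

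Regions named are the 5 widest and those beside the longest gaps, in the last 200 kb of Igk or anywhere in Igl; others were chosen after their values were seen. The windows, lists and tests were chosen with earlier results of these data known. The track reaches 7.16 Mb past the last GRCm38.p6 gene on chromosome 7. Gene positions were not used, and sequences at the regions were not analysed here. Alternatives were joining distance, width filters, limits, membership and window grid. Software was matplotlib 3.10.9, pandas 2.3.3, scipy 1.17.1 and numpy 2.4.6 under Python 3.11.15.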

Additional observations from a re-analysis of the deposited data

How the results depend on the processing

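Of 54 alternative values for 11 results, 40 stayed within 1.5 times the count or within the counting interval, 14 moved and 0 changed direction. Counts, widths and gaps have no direction to change. Taking the approximate locus in place of the window gave 27 Igk regions for 46 and 3 Igl regions for 7. It lowered the Igk ratio to the rest of chromosome 6 from 0.617 to 0.406 (locus excluded from the rest). The share of equal windows with fewer regions went from 34.7% to 21.9% at Igk and from 36.4% to 38.8% at Igl. Only regions of 500 bp or more left 22 at Igk and 4 at Igl, with 41.9% of windows below Igl. Without regions of 100 bp or less, 4 remained at Igl, and the shares of windows were 38.6% (Igk) and 30.3% (Igl). Joining within 200 or 1000 bp gave 30.6% and 31.0% at Igl. The alternatives for the margins and for both parts of the locus were chosen after seeing the data. With limits moved out by 50 kb, the Igk ratio to its margins went from 0.178 to 0.507. This follows by construction, since the part of the margins nearest the locus held most of their regions and joined it. Changes under joining and width filters follow in part from fewer or longer regions; otherwise the cause was not tested. No paired analysis was possible because only 1 library was used. Without read depth, how many weak sites are missing cannot be said.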
